A study of Mus musculus with 24 samples.

Results

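Fgf21 and Gdf15, the genes of 2 circulating stress hormones, were described in the livers of 24 mice, and were chosen by name from the 15741 genes that the deposited tables list. Both genes had a value in every library. The study crossed genotype, diet and time of death in 8 groups of 3 mice. The KO mice were knockouts of GCN2, the product of Eif2ak4, with no tissue restriction in the labels, and the WT mice were wild type. The LeuD diet held no leucine, and all mice had first spent 2 days on the Control diet. They lived singly under 12 h of light and 12 h of dark. The diet changed as the lights went off, lasting darkness followed 24 h later, and after 8 days of it livers were taken under red light at circadian time 15 (CT15) or 3 (CT03). The groups were therefore KO LeuD, KO Control, WT LeuD and WT Control, each at CT15 and at CT03. The labels give no age or sex.

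FGF21 is a hormone of the fibroblast growth factor family that hepatocytes release in fasting and in protein or amino acid shortage, and it acts through an FGF receptor together with the co-receptor beta-Klotho. GDF15 is a distant member of the transforming growth factor beta superfamily that many stressed cells release, and its receptor GFRAL, which signals with RET, is found in the hindbrain, where it lowers food intake. Both genes are known targets of the integrated stress response, in which GCN2, PERK, HRI or PKR phosphorylates the translation factor eIF2 and the transcription factor ATF4 is made in larger amount. Fgf21 is also a target of PPAR-alpha and of ChREBP, and Gdf15 of p53 and CHOP.

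The promoter sequences are shown because the 2 genes differ in whether the ATF4 element lies near the start site. They are from RefSeq on GRCm38.p6, both on the minus strand, and give the 250 bases before the start site of Fgf21 (chr7:45615491-45615740) and of the first start site of Gdf15 (chr8:70632457-70632706). Capitals mark every match to the letters searched on both strands. These were TGATGCAA (the composite element of ATF4 and C/EBP proteins), its looser form TGATGNAA, which also matches the first, TGACGTCA (cyclic AMP response element), the E-box, the TATA box, the PPAR response element and, contained in it, the single site of ROR and REV-ERB receptors.
Fgf21: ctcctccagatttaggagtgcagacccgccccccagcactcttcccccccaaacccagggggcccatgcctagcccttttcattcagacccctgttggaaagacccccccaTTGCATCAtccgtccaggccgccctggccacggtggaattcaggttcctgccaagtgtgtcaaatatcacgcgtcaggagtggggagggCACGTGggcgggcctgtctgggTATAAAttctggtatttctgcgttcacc
Gdf15 start site 1: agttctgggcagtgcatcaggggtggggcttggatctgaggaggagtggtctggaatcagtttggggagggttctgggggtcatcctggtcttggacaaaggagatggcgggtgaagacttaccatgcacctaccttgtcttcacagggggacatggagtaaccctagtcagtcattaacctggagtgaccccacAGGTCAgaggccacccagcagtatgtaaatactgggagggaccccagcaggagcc

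In Fgf21 the element TTGCATCA, which is TGATGCAA read on the other strand, lay 139 bases before the start site. Of 32851 promoter windows of 300 bases in the table, 294 held these letters (0.895%). Fgf21 also held an E-box, CACGTG, 50 bases before the start, found in 7.15% of windows, and a TATA box 28 bases before it with the letters TATAAA, found in 13.6%. The window of the first Gdf15 start site held 1 match, the single receptor site with the letters AGGTCA, 55 bases before the start, which 16.3% of windows hold. The window of the second Gdf15 start site, which was searched but is not printed, held an E-box 83 bases before that start. Neither Gdf15 window held TGATGNAA, which occurs in 3.97% of windows. No match says only that these letters are not in these 300 bases.

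The libraries held 34137121 to 44884200 reads in listed genes, with 33 to 1275 reads of Fgf21 and 62 to 2445 reads of Gdf15. Levels are normalized counts, that is reads divided by a size factor per library on 1 scale for the 24 libraries. Eif2ak4 stood at 243 to 462 normalized counts in KO libraries and at 287 to 349 in WT libraries, and reads over the whole gene do not check a deletion of part of it. The 12 hepatocyte markers were all listed. Their sum was 166563 to 204432 RPM (reads scaled by library depth) in KO LeuD and 127165 to 149469 in KO Control libraries, without overlap, and 126550 to 160586 in WT LeuD and 97220 to 134083 in WT Control libraries, with overlap. Taken singly over both times, 5 of the 12 were higher on LeuD than on Control in KO livers, with a median log2 difference of -0.057. In WT livers 10 of the 12 were higher, with a median of 0.16. The part of the hepatocyte markers in the hormone values was not tested. Transcripts of pancreas acinar cells, which are known to express Fgf21 themselves, were measured in 26 of 28 markers. Their sum was 15073 RPM in KO LeuD CT03 replicate 1, 8011 in KO LeuD CT15 replicate 3, 4393 in WT LeuD CT15 replicate 1, 667 in KO Control CT15 replicate 1 and 258 RPM in replicate 3 of KO Control CT03. The other 19 libraries held 0.717 to 55.3 RPM. In bulk liver, fewer cells of a type and less RNA per cell cannot be told apart.

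Fgf21 was highest in mice without leucine, and the group means ran from 492 ± 588 normalized counts in KO LeuD CT03 (SD, n = 3 in each group) through 457 ± 150 in WT LeuD CT15, 202 ± 203 in KO LeuD CT15, 162 ± 95.1 in WT LeuD CT03, 120 ± 42.7 in WT Control CT03, 99.7 ± 88.2 in KO Control CT15 and 56.5 ± 23.0 in WT Control CT15 to 49.3 ± 12.8 in KO Control CT03. Each pair of neighbours in this order overlapped. Gdf15 ran from 1335 ± 794 in KO LeuD CT03 through 639 ± 679 in KO LeuD CT15, 411 ± 198 in WT LeuD CT15, 309 ± 100.4 in WT LeuD CT03, 176 ± 33.1 in WT Control CT03, 160.4 ± 89.8 in WT Control CT15 and 147 ± 78.9 in KO Control CT03 to 144 ± 35.6 in KO Control CT15. Neighbours overlapped here too, and for both genes the 4 LeuD means lay above the 4 Control means.

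**Figure D1:**
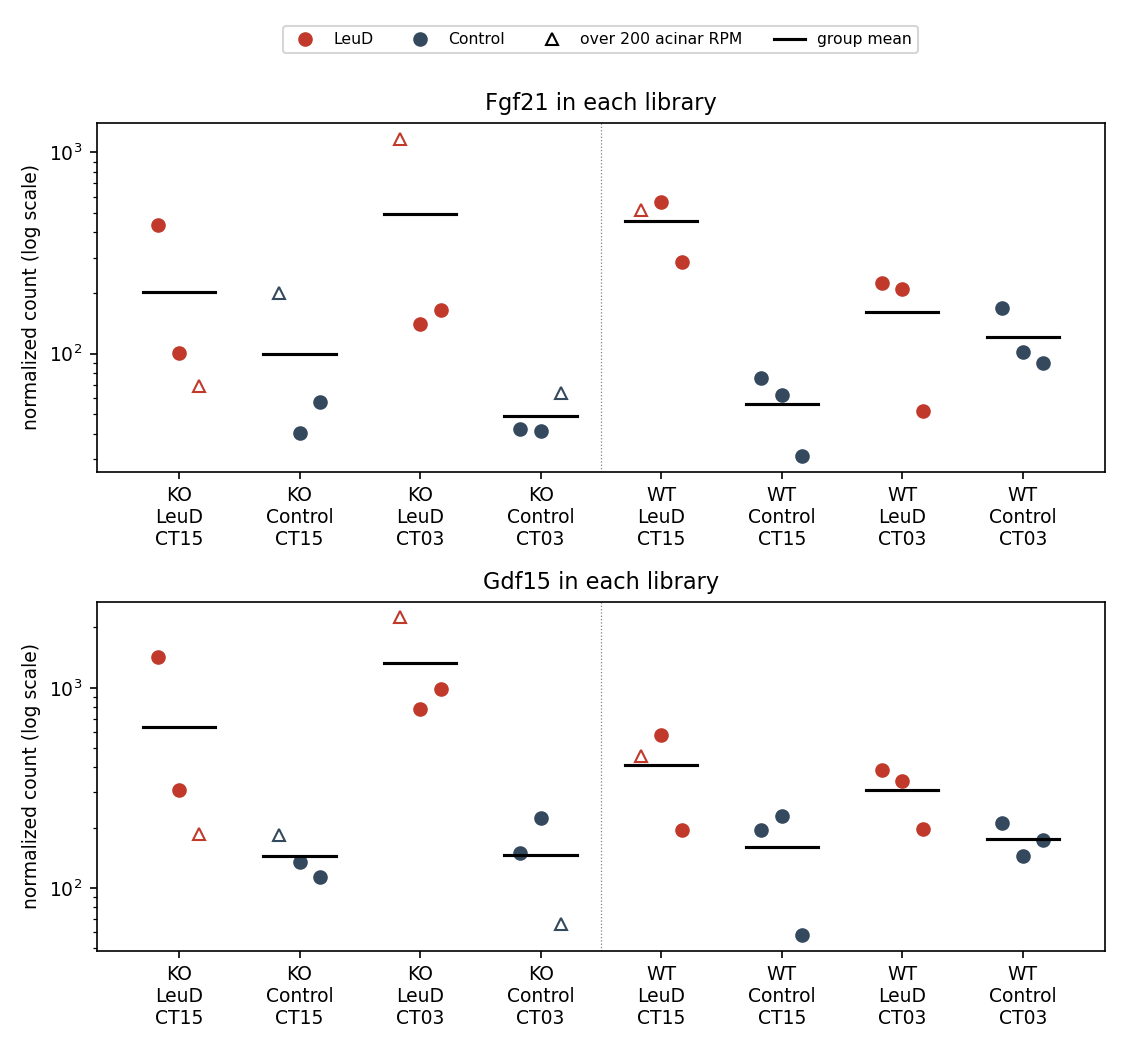
Normalized counts (log axis) of Fgf21 and Gdf15 in each of the 24 libraries, 3 per group, with the KO groups left of the WT groups, red for LeuD and dark for Control, horizontal lines for group means and open triangles for the 5 libraries over 200 acinar RPM. The highest library of both genes is KO LeuD CT03 replicate 1, at 1170 for Fgf21 and 2244 for Gdf15.

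The first question was whether leucine deprivation raised the hormone transcripts, and whether it did so without GCN2. Fgf21 in KO livers at CT15 stood at 436, 101 and 68.8 normalized counts on LeuD and at 201, 40.3 and 57.7 on Control. The ranges overlapped, since 1 LeuD library stood far above its mates and 1 Control library above 2 LeuD libraries. The log2 difference was 0.88 ± 0.79 (SE), with an adjusted p of 0.621 in limma. It was 0.090 without KO LeuD CT15 replicate 1 (adjusted p = 0.968), 2.08 without the libraries over 200 acinar RPM (0.232), and 0.42 to 1.56 in the fits without 1 of the other 5 libraries. Differences and their SE are on the log2(normalized count + 1) scale within the deposited table, with Benjamini-Hochberg adjustment over all its genes. A gene is called at an adjusted p under 0.05, which 0.0202% of genes passed here. Wherever groups are said to overlap or not, how many of all genes separate likewise was not counted.

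At CT03 in KO livers, Fgf21 stood at 1170, 140 and 164 normalized counts on LeuD and at 42.2, 41.6 and 64.0 on Control. All LeuD libraries lay above all Control libraries, and 1 of them was several times its mates. The log2 difference of 2.61 ± 0.76 had an adjusted p of 0.277, in a comparison where limma called 0% of 14888 genes. Without adjustment, 2173 genes had a p under 0.05. On the same libraries edgeR called 0 genes and DESeq2 520. The authors' deposited table gives Fgf21 a log2 fold change of 3.32 with an adjusted p of 0.0271, where 3.51% of its genes pass. Without replicate 1 of KO LeuD CT03, the library with 15073 acinar RPM, the log2 difference was 1.63.

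In WT livers at CT15, Fgf21 rose: it stood at 519, 566 and 285 normalized counts on LeuD and at 75.8, 62.7 and 31.1 on Control. The groups did not overlap, and the lowest LeuD library was above the highest Control library by a wide margin. The log2 difference was 3.02 ± 0.37 (adjusted p = 0.0336, limma), with 0.186% of genes called, and the ratio of the means within the table was 8.08. The authors' deposited table gives 3.01 with an adjusted p of 1.15e-15, in a comparison where 3.7% of its genes pass. The limma call was lost without WT LeuD CT15 replicate 1 (the library with 4393 acinar RPM, log2 difference 2.90, adjusted p = 0.129), replicate 2 (0.167) or replicate 3 (0.0504) and without WT Control CT15 replicate 1 (0.0984) or replicate 2 (0.0876), and held without Control replicate 3 (0.0212). The value lay between 2.65 and 3.33 in all 6 of these fits.

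At CT03 in WT livers, Fgf21 stood at 224, 209 and 52.2 normalized counts on LeuD and at 169, 102 and 90.1 on Control. The LeuD group held both the highest and the lowest library, and the log2 difference was 0.22 ± 0.52 (adjusted p = 0.868, limma), where 2.24% of genes were called. The 95% interval of that difference ran from -0.97 to 1.40.

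Averaged over both times in 1 limma fit of the 24 libraries, Fgf21 rose on LeuD in KO livers by a log2 difference of 1.75 ± 0.55 (adjusted p = 0.0332), where 17% of 14420 genes were called. In WT livers the average was 1.62 ± 0.55 (adjusted p = 0.128), where 2.31% were called. The fit estimates a single spread for all groups, so both genotypes carry the same SE. Before adjustment the limma p of Fgf21 was 0.00448 in KO and 0.00764 in WT livers, and it ranked 1947 and 861 by p. The call in KO but not in WT livers thus goes with the larger share of genes called in KO. The difference between the KO and the WT value was 0.13 ± 0.77 (adjusted p = 0.947, 1.49% called), with a 95% interval from -1.48 to 1.74. Without the 5 libraries over 200 acinar RPM, the KO value was 1.97 (adjusted p = 0.0223). The call was lost without KO LeuD CT03 replicate 1 (adjusted p = 0.107), KO LeuD CT15 replicate 1 (0.0904), KO Control CT03 replicate 1 (0.065) or 2 (0.0614), or KO Control CT15 replicate 2 (0.0761) or 3 (0.0678).

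Gdf15 was higher on LeuD in each genotype and time, and the difference was called in KO livers over both times. In KO livers at CT15, Gdf15 stood at 1419, 310 and 187 normalized counts on LeuD and at 183, 136 and 113 on Control. All LeuD libraries lay above all Control libraries, the lowest of them only just and with 8011 acinar RPM, and the log2 difference was 1.61 ± 0.67 (adjusted p = 0.299, limma). It was 0.76 without KO LeuD CT15 replicate 1 (adjusted p = 0.401) and 2.40 without the libraries over 200 acinar RPM (0.177). The authors' deposited table gives 2.14 with an adjusted p of 0.145, in a comparison where 4.82% of its genes pass.

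In KO livers at CT03, Gdf15 stood at 2244, 779 and 981 normalized counts on LeuD and at 150, 224 and 66.1 on Control. Every LeuD library was above every Control library by more than the spread within Control. The log2 difference was 3.18 ± 0.53 with a ratio of means of 9.08, and the gene ranked 30 by p among 14888 genes. The adjusted p was 0.189 in limma, and it was 1.62e-07 beside a log2 fold change of 3.18 in the authors' deposited table. Without KO LeuD CT03 replicate 3 the limma adjusted p was 0.0323 (log2 difference 3.33). The other fits that left out 1 library were not called, with adjusted p values up to 0.708. Without the libraries over 200 acinar RPM the difference was 2.24 (adjusted p = 0.315).

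In WT livers at CT15, Gdf15 stood at 458, 581 and 194 normalized counts on LeuD and at 195, 228 and 58.4 on Control. The lowest LeuD library lay within the Control range, and the log2 difference was 1.43 ± 0.56 (adjusted p = 0.342, limma). At CT03 it stood at 388, 343 and 196 on LeuD and at 210, 144 and 173 on Control. Here too 1 LeuD library lay within the Control range, with a log2 difference of 0.77 ± 0.26 (adjusted p = 0.176, limma), whereas the authors' deposited table gives 0.81 with an adjusted p of 0.0392, where 7.22% of its genes pass.

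Averaged over both times, Gdf15 rose on LeuD in KO livers by a log2 difference of 2.40 ± 0.45 (adjusted p = 0.00182, limma on 24 libraries). In that comparison 17% of 14420 genes were called. The call for Gdf15 held in each of the 12 fits that left out 1 KO library, with values of 1.98 to 2.71. It also held without the libraries over 200 acinar RPM (2.33, adjusted p = 0.00968), where 4.24% of all genes were called higher. In WT livers the average was 1.10 ± 0.45 (adjusted p = 0.223), where 2.31% of genes were called. The KO value was higher than the WT value by 1.30 ± 0.64 on the log2 scale (adjusted p = 0.261, 1.49% called). The 95% interval ran from -0.036 to 2.64, so a difference between genotypes in the diet effect was not shown. Markers of erythroid cells also moved with diet: the 6 of them summed to 82.9 to 276 RPM in KO LeuD and 239 to 382 in KO Control libraries, and to 78.2 to 176 in WT LeuD and 212 to 462 in WT Control libraries. All 6 were called lower on LeuD in KO and 2 in WT livers over both times, where 8.04% and 0.95% of all genes were called lower. The part of the erythroid markers in the hormone values was not tested.

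**Figure D2:**
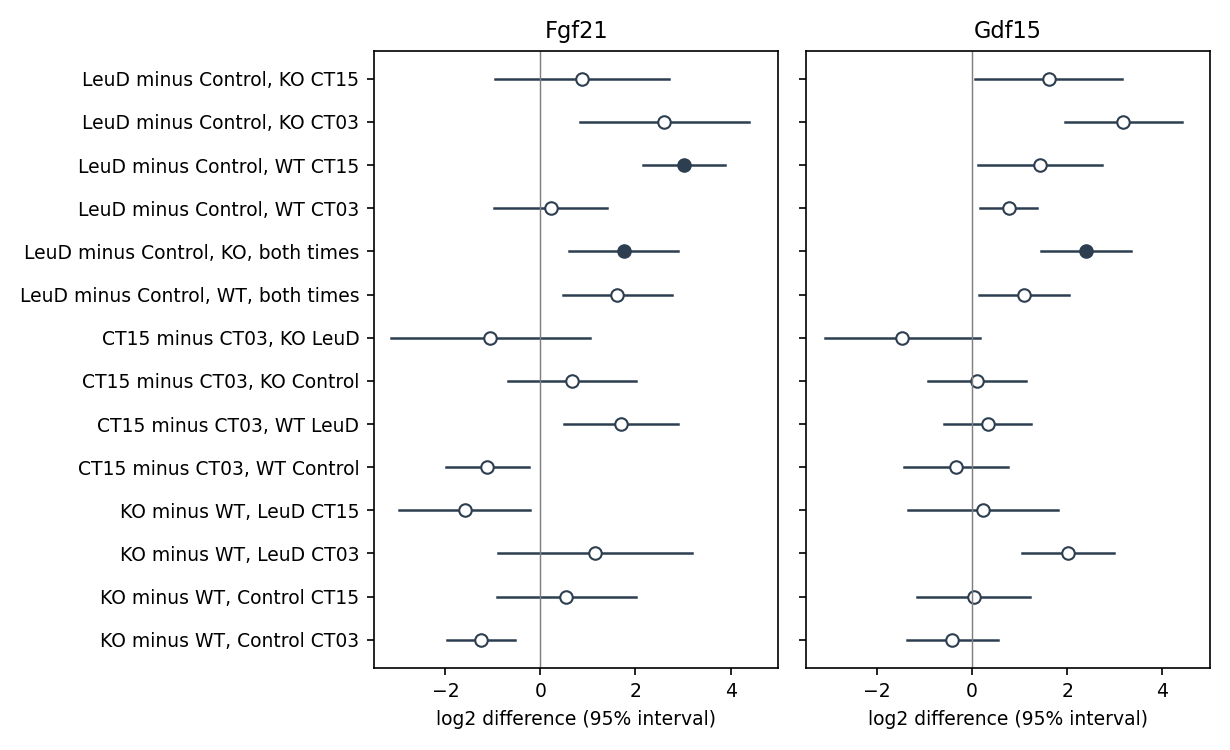
Log2 differences of Fgf21 and Gdf15 with 95% intervals from limma, for the effects of diet, time and genotype, with filled circles where the adjusted p was under 0.05. The 3 filled circles are Fgf21 on diet in WT CT15 (3.02) and both genes on diet in KO over both times (1.75 and 2.40).

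The second question was whether genotype changed the level itself. On LeuD at CT15, Fgf21 stood at 68.8 to 436 normalized counts in KO and at 285 to 566 in WT livers. The log2 difference was -1.59 ± 0.60 (adjusted p = 0.209, limma), and the KO library at 436 lay within the WT range. Without that library, KO LeuD CT15 replicate 1, the difference was -2.38 with an adjusted p of 0.0271, and 1.89% of genes were called in the comparison of all 6 libraries. The other fits that left out 1 library were not called, with adjusted p values up to 0.489. Without the libraries over 200 acinar RPM the difference was -0.94 (adjusted p = 0.668). On LeuD at CT03, Fgf21 differed by 1.15 ± 0.88 in KO against WT livers (adjusted p = 0.574), with overlapping groups, and it was 0.17 without the KO library with 15073 acinar RPM.

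Gdf15 on LeuD at CT03 stood at 779 to 2244 normalized counts in KO and at 196 to 388 in WT livers. These did not overlap, which was not counted over all genes. The log2 difference was 2.01 ± 0.42 (adjusted p = 0.17, limma), where 0.0416% of genes were called, and it was 1.56 (adjusted p = 0.357) without the KO library with 15073 acinar RPM. Without KO LeuD CT03 replicate 3 it was called, at 2.15 with an adjusted p of 0.0263. The other fits that left out 1 library were not called, with adjusted p values up to 0.614. On LeuD at CT15 the Gdf15 groups overlapped, with 0.22 ± 0.69 (adjusted p = 0.9). At CT15 the KO minus WT difference in diet effect was -2.14 ± 0.98 for Fgf21 and 0.19 ± 0.99 for Gdf15 (adjusted p = 0.413 and 0.955), where 0.104% of genes were called. Without the libraries over 200 acinar RPM these were -0.80 and 1.13 (adjusted p = 0.877 and 0.857). The diet effect of Gdf15 at CT03 was larger in KO than in WT livers by 2.42 ± 0.65 on the log2 scale, at an unadjusted p of 0.00308 and an adjusted p of 0.283. For Fgf21 that difference was 2.39 ± 1.04 (adjusted p = 0.361). Leaving out the acinar-rich libraries gave 1.48 for Gdf15 and 1.61 for Fgf21 (adjusted p = 0.432 and 0.564). In this test of the difference limma called 0% of genes, while 1883 genes had a p under 0.05 before adjustment, and edgeR called 1 and DESeq2 173.

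Over both times on LeuD, the KO minus WT difference was -0.22 ± 0.55 for Fgf21 and 1.12 ± 0.45 for Gdf15 (adjusted p = 0.85 and 0.135), where 8.59% of genes were called. On Control it was -0.35 ± 0.55 for Fgf21 and -0.19 ± 0.45 for Gdf15 (adjusted p = 0.817 and 0.888), where 0.264% were called.

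On Control, Fgf21 at CT03 stood at 42.2, 41.6 and 64.0 normalized counts in KO and at 169, 102 and 90.1 in WT livers. All KO libraries were below all WT libraries, a separation that was not counted over all genes. The log2 difference was -1.25 ± 0.31 (adjusted p = 0.529, limma), where 0.0136% of genes were called. The authors' deposited table gives -1.30 with an adjusted p of 0.0464, where 0.649% of its genes pass. At CT15 on Control the genotypes overlapped, with 0.55 ± 0.62 (adjusted p = 0.83), where 0.0798% of genes were called. Gdf15 on Control overlapped between genotypes at both times, with -0.41 ± 0.41 at CT03 and 0.037 ± 0.51 at CT15 (adjusted p = 0.796 and 0.986, limma).

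The third question was whether the level depended on the time of death. In WT livers on LeuD, all 3 Fgf21 libraries at CT15 (285 to 566 normalized counts) lay above all 3 at CT03 (52.2 to 224), with a log2 difference of 1.69 ± 0.53 (adjusted p = 0.0828, limma) where 9.61% of genes were called. In WT livers on Control, all 3 at CT15 (31.1 to 75.8) lay below all 3 at CT03 (90.1 to 169), with -1.11 ± 0.38 (adjusted p = 0.19) where 1.42% were called. How many of all genes separate by time in this way was not counted. The 2 time effects differed by 2.80 ± 0.73 (unadjusted p = 0.00227, adjusted p = 0.432), in a comparison where 0.00693% of genes were called. In KO livers the times overlapped on both diets, with -1.05 ± 0.91 on LeuD and 0.67 ± 0.57 on Control (adjusted p = 0.605 and 0.685), where 0.805% and 0.0407% of genes were called. The time effect of Fgf21 differed between KO and WT by 1.79 ± 0.75 on Control and -2.74 ± 1.20 on LeuD (adjusted p = 0.977 and 0.513, 0.0277% and 0.0208% called), and the LeuD minus Control time effect in KO was -1.73 ± 1.23 (adjusted p = 0.793). Gdf15 also overlapped between the times in all 4 conditions, with differences from -1.46 ± 0.71 in KO LeuD to 0.33 ± 0.40 in WT LeuD and adjusted p values of 0.352 to 0.945.

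Fgf21 and Gdf15 followed each other from liver to liver. Over 24 libraries and 11241 genes with a mean of at least 50 normalized counts, Gdf15 had the highest Pearson correlation with Fgf21 of all genes (0.78, Spearman 0.70), and Fgf21 the highest with Gdf15. This likeness includes what the libraries share by group, depth and acinar content. After each value was taken as its deviation from its group mean, Pearson r was 0.74 and Spearman rho 0.73, with a permutation p of 0.001 and 0.0013 over 100000 permutations within groups, for the 1 relation tested. Without the 2 libraries farthest from the median of Fgf21 (KO LeuD CT03 replicate 1 and KO LeuD CT15 replicate 1) r was 0.63, and without the 5 libraries over 200 acinar RPM it was 0.81. Taken within groups, Dgkd (0.78) and Ccm2 (0.75) had a higher Pearson r with Fgf21 than Gdf15 had. Ranks over all genes were not taken within groups.

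**Figure D3:**
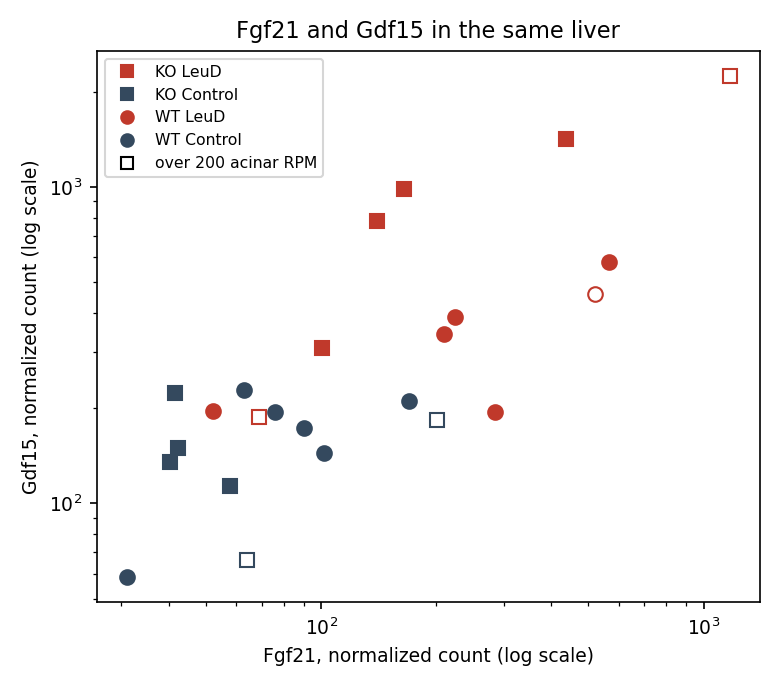
Gdf15 against Fgf21 in each of the 24 livers, both in normalized counts on log axes, with squares for KO, circles for WT, red for LeuD, dark for Control and open symbols over 200 acinar RPM. The highest KO LeuD livers stand at 1170 and 436 for Fgf21 and at 2244 and 1419 for Gdf15, and these 2 livers are the highest of all for Gdf15.

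The next genes by likeness to Fgf21 were Dgkd (a diacylglycerol kinase, r = 0.76), Ddit3 (which encodes the stress factor CHOP, 0.71), Rpl13a (0.71), Dlgap4 (0.70) and Ccm2 (0.70). The lowest were Lrba (-0.74), Gatsl2 (-0.72) and Acpp (-0.70). For Gdf15 they were Rps15a (a ribosomal protein, 0.77), Ddit3 (0.77), Rpl38, Rps19 and Rplp1 (0.76 each), and the lowest were Pcx (pyruvate carboxylase, -0.81), Kmo (an enzyme of tryptophan breakdown, -0.80) and Immt (-0.79). Only Ddit3 was among the nearest 6 of both hormones. Taken as deviations from the group means, the correlation with Gdf15 was closer to 0 for Rps15a (0.23), Rpl38 (0.31), Rps19 (0.15), Rplp1 (0.17), Ddit3 (0.52), Pcx (-0.47), Kmo (-0.25) and Immt (-0.32), and with Fgf21 it was 0.78 for Dgkd, 0.75 for Ccm2, 0.43 for Ddit3, 0.42 for Dlgap4 and 0.37 for Rpl13a.

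The receptors of FGF21 in liver were measured beside the hormone. Klb, the beta-Klotho co-receptor, averaged 1517 ± 254 normalized counts in KO LeuD and 1595 ± 524 in KO Control livers (SD, n = 6), and 1347 ± 296 in WT LeuD and 1045 ± 148 in WT Control livers. The diet effect over both times was -0.025 ± 0.19 in KO and 0.35 ± 0.19 in WT livers (adjusted p = 0.944 and 0.371, limma). None of Klb, Fgfr1, Fgfr2, Fgfr3 and Fgfr4 was called, with log2 differences in KO livers of -0.048 for Fgfr1, -0.33 for Fgfr2, -0.41 for Fgfr3 and -0.28 for Fgfr4. In WT livers they were 0.15 for Fgfr1, 0.10 for Fgfr2, -0.23 for Fgfr3 and -0.090 for Fgfr4. Over both times, 17% of all genes were called in KO and 2.31% in WT livers. With the libraries over 200 acinar RPM left out, 1 of the 5 receptor genes was called lower in KO livers, where 4.75% of all genes were lower. The GDF15 receptor genes Gfral and Ret were not listed.

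Of the kinases of eIF2, Eif2ak3 (PERK, which senses stress of the endoplasmic reticulum) rose on LeuD in KO livers over both times, by 0.63 ± 0.15 on the log2 scale (adjusted p = 0.00818, limma). Eif2ak1 (HRI, the heme-regulated kinase) fell by 0.37 ± 0.08 (adjusted p = 0.00485), and reads of the targeted gene Eif2ak4 fell by 0.43 ± 0.10 (adjusted p = 0.00495). Eif2ak2 (PKR, which senses double-stranded RNA) differed by 0.29 ± 0.15 (adjusted p = 0.208). In WT livers 0 of the 4 kinases and 2 phosphatase subunits were called, with -0.039 for Eif2ak1, -0.45 for Eif2ak2, 0.16 for Eif2ak3 and 0.020 for Eif2ak4. Over both times, 8.97% of all genes were called higher and 8.04% lower in KO livers, and 1.36% and 0.95% in WT livers. With the libraries over 200 acinar RPM left out, 0 of the 6 were called higher and 1 lower in KO livers. Of all genes, 4.24% were then called higher and 4.75% lower.

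Among 35 measured ATF4 target genes other than the 2 hormones, 14 were called higher and 2 lower on LeuD in KO livers over both times, against 8.97% of all genes higher and 8.04% lower. The median log2 difference of the list was 0.29, and 0.0040 over all genes. Phgdh, the first enzyme of serine synthesis, averaged 174 ± 135 normalized counts in KO LeuD and 20.0 ± 10.6 in KO Control livers (2.88 ± 0.55, adjusted p = 0.00193). Ddit3 averaged 812 ± 315 and 287 ± 133 in the same groups (adjusted p = 0.000566), a log2 difference of 1.498 ± 0.24. The 2 that fell, named after their values were seen, were Cth, which makes cysteine (-1.05), and Shmt2, the mitochondrial serine hydroxymethyltransferase (-0.33). When the libraries over 200 acinar RPM were left out, 5 were called higher and 0 lower, while the share of all genes was 4.24% higher and 4.75% lower. At each time alone, 0 of 36 ATF4 targets were called in KO livers, where 0% of all genes were called at CT03 and 0.0202% at CT15. Of the 36, 30 were higher on LeuD at CT03 (median 0.45) and 23 at CT15 (median 0.19). The other gene lists also had 0 calls in KO livers at either time alone.

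In WT livers 6 of the 35 ATF4 targets rose and 0 fell over both times, against 1.36% of all genes higher and 0.95% lower. The median was 0.33, and -0.0051 over all genes. Sars, seryl-tRNA synthetase, averaged 3907 ± 854 normalized counts in WT LeuD and 2544 ± 587 in WT Control livers (0.62 ± 0.11, adjusted p = 0.00577), and Cebpg 3203 ± 372 and 2050 ± 120 (0.64 ± 0.13, adjusted p = 0.0148). At CT15, where Fgf21 rose in WT livers, Asns (asparagine synthetase) averaged 708 ± 165 on LeuD and 169 ± 30.5 on Control (2.05 ± 0.20, adjusted p = 0.0245), and Psat1, which acts in serine synthesis, 247 ± 53.4 and 49.1 ± 13.2 (2.32 ± 0.25, adjusted p = 0.0262, SD, n = 3). At CT03, where the Fgf21 groups overlapped, 7 rose and 1 fell, against 1.31% of all genes higher and 0.93% lower, among them Psat1 (2.62 ± 0.33, adjusted p = 0.00959) and Atf5, a further ATF factor (1.44 ± 0.18, adjusted p = 0.00959). At CT15, 2 of the 35 were called higher and 0 lower, where 0.186% of all genes were called in either direction. At each time 29 of the 35 were higher on LeuD, with a median of 0.46 at CT15 and 0.39 at CT03. The count over both times was 7 without the libraries over 200 acinar RPM, where 1.35% of all genes were higher.

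**Figure D4:**
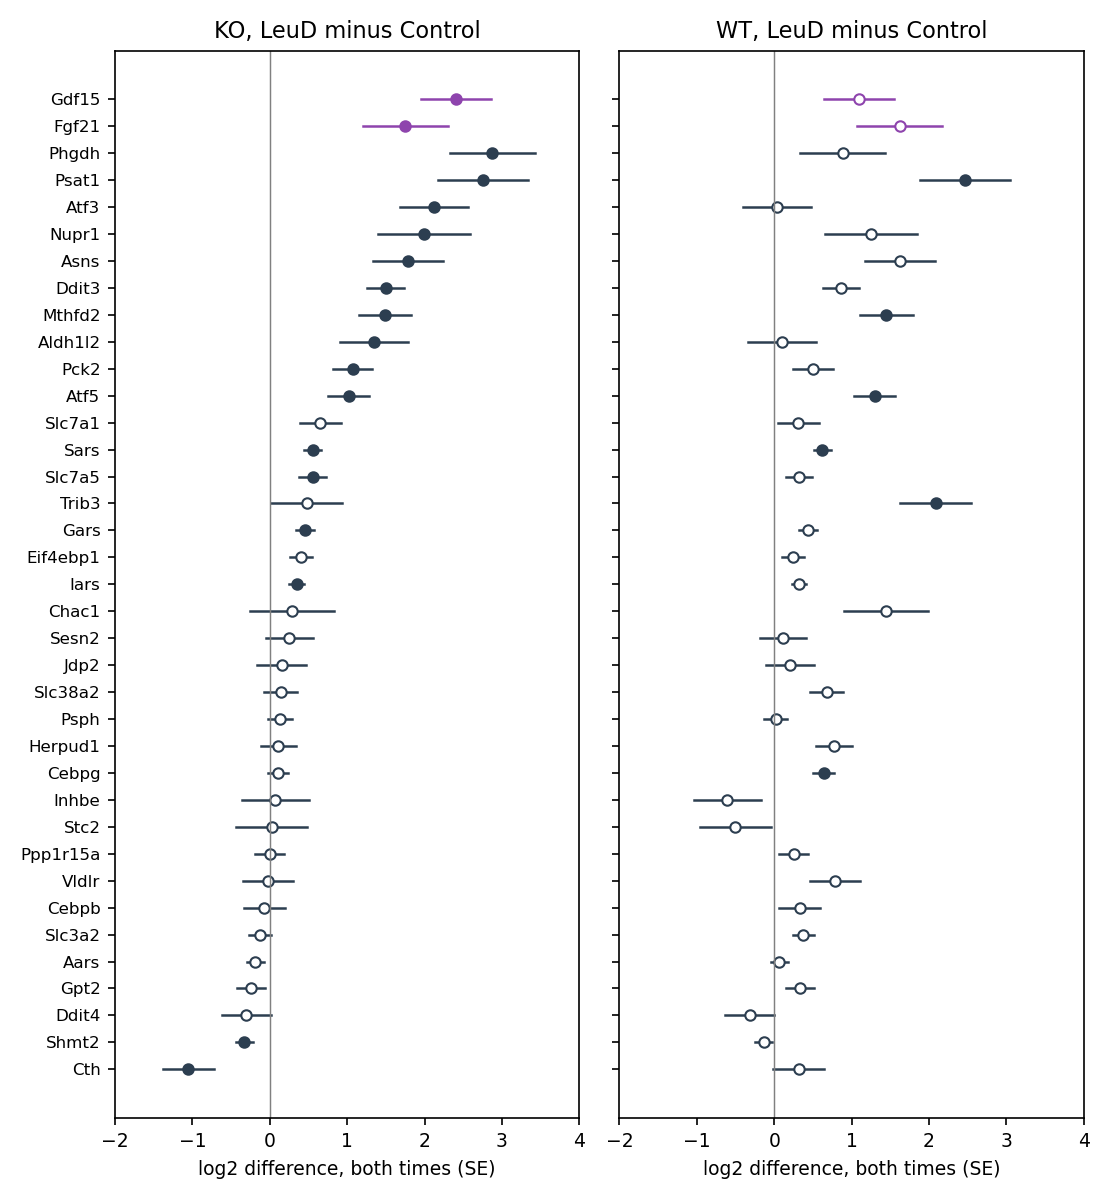
Log2 differences (LeuD minus Control, both times, with SE) of the 35 measured ATF4 target genes in dark and of Gdf15 and Fgf21 in purple at the top, in KO livers left and WT livers right, ordered by the KO value. Filled circles mark an adjusted p under 0.05, which 14 list genes reached upward in KO and 6 in WT livers.

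Of 19 measured transcription factors known to act on Fgf21 or Gdf15, 5 rose and 1 fell on LeuD in KO livers over both times (all genes 8.97% higher and 8.04% lower), and 0 were called in WT livers, where Ddit3 (0.86 ± 0.24) and Rora (a nuclear receptor, 0.40 ± 0.12) had the lowest p (adjusted p = 0.0582 and 0.071). Besides Ddit3, Atf3 (a stress factor downstream of ATF4) averaged 432 ± 357 normalized counts in KO LeuD and 78.8 ± 32.8 in KO Control livers (2.12 ± 0.44, adjusted p = 0.00355, limma). Leaving out the libraries over 200 acinar RPM gave 2 higher and 1 lower, where 4.24% of all genes were higher and 4.75% lower. Ddit3, Atf3, Cebpb and Nupr1 are also among the ATF4 targets, so the counts of these lists are not independent. The 12 p53 target genes, of interest because Gdf15 is one of them, were called higher in 6 cases and lower in 0 in KO livers, beside 8.97% and 8.04% of all genes, with a median of 0.59. They were called in 0 cases in WT livers (all genes 1.36% higher and 0.95% lower), with a median of -0.11, and Plk2 (-0.64 ± 0.20) and Trp53inp1 (1.16 ± 0.37) had the lowest p (adjusted p = 0.0965 and 0.103). Eda2r, a receptor of the tumor necrosis factor family, averaged 96.4 ± 81.9 in KO LeuD and 17.4 ± 7.02 in KO Control livers (2.09 ± 0.40, adjusted p = 0.00191), and Aen, a nuclease, 866 ± 206 and 454 ± 56.9 (0.90 ± 0.15, adjusted p = 0.000845). Leaving out the libraries over 200 acinar RPM, 4 p53 targets were called higher in KO and 2 in WT livers, beside 4.24% and 1.35% of all genes.

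PPAR-alpha targets are genes mainly of fatty acid metabolism, not of oxidation alone, that fasting raises together with Fgf21. On LeuD in KO livers over both times they fell in 4 of 18 cases and rose in 0. Of all genes, 8.04% fell and 8.97% rose, and the median of the list was -0.52. Hadha, an enzyme of mitochondrial fatty acid oxidation, and Acot1, an acyl-CoA thioesterase, fell, with log2 differences of -0.51 ± 0.13 and -2.37 ± 0.65 (adjusted p = 0.0127 and 0.0169, limma). In WT livers, where 0.95% of all genes fell, 1 of 18 did, the peroxisomal thiolase Acaa1b (-1.65 ± 0.39, adjusted p = 0.0303). In the absence of the libraries over 200 acinar RPM, 1 fell and 1 rose in KO livers and 0 were called lower in WT livers, beside 4.75% lower and 4.24% higher of all genes in KO and 1.33% lower in WT livers. Of the 10 ChREBP targets 0 were called in either genotype, with medians of 0.19 in KO and -0.58 in WT livers, and 1 was called lower in KO livers without those libraries. The KO average joined a median of 1.15 at CT15, with 8 of 10 above 0, and one of -0.80 at CT03, with 0 of 10 above 0, and 0 were called at either time. Gpd1, an enzyme of glycerol phosphate synthesis, differed by -0.29 ± 0.25 in KO and -0.54 ± 0.25 in WT livers (adjusted p = 0.454 and 0.289). G6pc, glucose-6-phosphatase, had -0.56 ± 0.32 in KO livers (adjusted p = 0.246), and Acly, ATP citrate lyase, -1.10 ± 0.51 in WT livers (adjusted p = 0.289).

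Of 25 other secreted proteins of liver, 5 rose and 1 fell in KO livers over both times, where 8.97% of all genes rose and 8.04% fell. In WT livers 4 rose and 0 fell, where 1.36% of all genes rose. Enho, the gene of the peptide adropin, rose by 2.07 ± 0.36 on the log2 scale in KO livers (adjusted p = 0.00111, limma), and Mst1, macrophage-stimulating protein, by 0.58 ± 0.09 (adjusted p = 0.00051). In WT livers Ahsg, fetuin-A, rose by 1.26 ± 0.20 (adjusted p = 0.00272) and Fetub by 0.65 ± 0.11 (adjusted p = 0.00577). Of the relatives of the 2 hormones, Fgf1 (-0.81 ± 0.22, adjusted p = 0.0148), Bmp10 (-0.93 ± 0.17, adjusted p = 0.00156) and Bmp7 (-1.02 ± 0.32, adjusted p = 0.0322) fell in KO livers, while Fgf11 had -0.79 ± 0.36 (adjusted p = 0.137). In WT livers none of 3 FGF and 12 GDF or BMP genes was called, the lowest p being those of Fgf1 (0.21 ± 0.22), Fgf2 (-0.021 ± 0.19), Bmp2 (0.36 ± 0.13) and Bmp6 (0.31 ± 0.12), with adjusted p of 0.684, 0.975, 0.144 and 0.194. After leaving out the libraries over 200 acinar RPM, 6 secreted factors rose and 0 fell in KO livers, 4 rose in WT livers, and 0 FGF and 2 GDF or BMP genes fell in KO livers, beside 4.24% of all genes higher and 4.75% lower in KO and 1.35% higher in WT livers.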

How the data were processed

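Polyadenylated liver RNA was enriched on oligo(dT) beads, per the labels' protocols, with a kit that as usually run does not mark strand. No annotated gene overlaps Fgf21 or Gdf15. GRCm39 is the build in the submitters' processing notes, which also list DESeq, DESeq2, featureCounts, STAR 2.5.2b, Subread 1.5.2 and Trimmomatic 0.36. Settings and annotation were not given in the sources used here. Per the file headers, the authors deposited 10 tables of 2 groups. Each deposited table holds, per gene, p-value columns (raw and adjusted), a log2 fold change and a signal per library, which the values show to be counts over a size factor. Whole reads were recovered within 0.01 of a read for 100% of values in 58 library columns. No size factor was found for 2 further columns, and the reads of those libraries were taken from other tables. These columns lie in the tables of genotype on Control at CT03 and of time in WT on Control.

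Within each table, limma 3.58.1 (R 4.3.3) with an intensity trend tested log2(normalized count + 1), which understates changes of low genes. KO against WT on LeuD, differences between effects and averages over both times used 14420 genes with reads in all 24 libraries, divided by median-ratio size factors. Comparisons share groups. The test planned for whole counts was replaced, since the files hold normalized values, and edgeR 4.0.16 and DESeq2 1.42.0 were run on the recovered reads as alternatives. Of these, only the limma fits were tested on simulated counts, which gave a gene the same dispersion in all groups and held no acinar-rich libraries. Means carry the SD over mice, and p values measure the spread between these mice alone. Libraries of the same group were compared by chi-square, which was 34.3 or more per degree of freedom, and each was kept. Alternatives were other tools, scaling, pseudocount 0.5, a mean of at least 10, a replicate block, leaving out single libraries and leaving out those over 200 acinar RPM, which for the list counts was added after seeing the data.

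The members, gene lists and markers were chosen with earlier results of these data known. Named were both hormones, all receptors and eIF2 kinases, from each other list the 2 genes of lowest p in a described diet comparison, the genes nearest in likeness, and the neighbouring genes. One gene that this rule names is not reported here. Motifs were searched in promoter windows from 250 bases before to 50 after a start site. Other markers (Kupffer, endothelial, stellate, lymphocyte, cholangiocyte and adipocyte) were summed per library and are given in Other observations.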

Additional observations from a re-analysis of the deposited data

Results flagged for a closer look

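In WT livers the Fgf21 libraries ran opposite ways with time on the 2 diets, though neither time effect was called. The adjusted p values were 0.0828 on LeuD and 0.19 on Control (limma). The result was flagged because the times did not overlap on either diet, and how many of all genes show this was not counted. All 3 LeuD libraries at CT15 lay above all 3 at CT03, and all 3 Control libraries at CT15 lay below all 3 at CT03. The difference of the time effects, LeuD minus Control, was 2.80 ± 0.73 on the log2 scale (adjusted p = 0.432, limma, unadjusted p = 0.00227). Over 9 other settings it lay between 2.58 and 2.82 with adjusted p values of 0.102 to 1, and over the 12 fits without 1 library between 2.13 and 3.17.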

How the results depend on the processing

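Over 46 results and 819 alternatives, 743 kept the direction and the side of the threshold, 15 lost a call, 18 gained one and 43 changed sign. Both averaged calls in KO livers held in all 7 other settings, and that of Gdf15 also in all 12 fits without 1 library. The cause of each change below was not tested. Values are log2 differences. The Fgf21 diet call in WT at CT15 was lost in edgeR on the same libraries (3.01, adjusted p = 0.0512), limma on 24 libraries (3.02), edgeR on 24 libraries (3.00) and without acinar-rich libraries (2.90). DESeq2 called diet for Gdf15 in WT CT03 (0.81), Fgf21 in KO CT03 (3.32) and Gdf15 in KO CT03 (3.18), genotype for Fgf21 on Control CT03 (-1.30) and for Gdf15 on LeuD CT03 (2.11) and LeuD over both times (1.37), and the diet by genotype difference of Gdf15 at CT03 (2.37). On 24 libraries, limma called diet for Gdf15 in KO CT03 (3.19), and edgeR did so for Fgf21 (3.33) and Gdf15 (3.20) there and for Gdf15 in KO CT15 (2.13). The fit with the replicate number as a block called diet for Gdf15 in WT CT15 (1.43) and for Fgf21 in WT over both times (1.62), time for Fgf21 in WT LeuD (1.69) and genotype for Gdf15 on LeuD over both times (1.12), although in no table did all 3 same-numbered pairs deviate together (correlation over 0.1), so the numbers were not read as pairs.

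Signs changed only for differences that were not called. These were Gdf15 with time in KO Control (edgeR -0.034, DESeq2 -0.032, edgeR on 24 libraries -0.016), Gdf15 with genotype on Control CT15 (edgeR -0.15, DESeq2 -0.15, edgeR on 24 libraries -0.16) and Fgf21 with genotype on LeuD over both times (DESeq2 0.21, edgeR 0.21). Without acinar-rich libraries they were Gdf15 with time in KO Control (-0.56), Fgf21 with time in KO LeuD (0.46), Gdf15 with genotype on Control CT03 (0.072) and CT15 (-0.15), Fgf21 with genotype on Control CT15 (-0.13), the time by diet difference in KO of Fgf21 (0.26) and Gdf15 (0.16), and the time by genotype difference on Control of Gdf15 (-0.22). Leaving out 1 library at a time changed a call or a sign for 18 differences, whose ranges were as follows. They were Fgf21 diet in WT at CT03 -0.15 to 0.89, Fgf21 diet in WT at CT15 2.65 to 3.33, Gdf15 diet in KO at CT03 2.70 to 3.57, Gdf15 time in WT on Control -0.70 to 0.28, Gdf15 time in KO on Control -0.38 to 0.49 and Fgf21 time in KO on Control -0.0065 to 1.14. Further ranges were Gdf15 genotype on Control at CT03 -0.80 to 0.072, Fgf21 genotype on Control at CT15 -0.13 to 1.01, Gdf15 genotype on Control at CT15 -0.58 to 0.40, Gdf15 genotype on LeuD at CT03 1.56 to 2.32, Fgf21 genotype on LeuD at CT15 -2.38 to -1.06 and Gdf15 genotype on LeuD at CT15 -0.63 to 0.83. Further ranges were Gdf15 diet by genotype at CT15 -0.67 to 0.80, Gdf15 time by genotype on Control -0.16 to 0.83, Fgf21 diet in KO, both times 1.26 to 2.09, Gdf15 genotype on Control, both times -0.49 to 0.056, Fgf21 genotype on LeuD, both times -0.71 to 0.053 and Fgf21 diet by genotype, both times -0.36 to 0.47. DESeq2 gave no adjusted p for Fgf21 in 3 differences of effects.

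Counts of called genes differed by over 1.5 times between tools. For diet in WT at CT03 there were 330 in limma against 961 in DESeq2 and 28 in edgeR on 24 libraries, for diet in WT at CT15 there were 28 in limma against 14 in edgeR, 523 in DESeq2 and 3 in edgeR on 24 libraries, and for diet in KO at CT03 there were 0 in limma against 520 in DESeq2 and 643 in edgeR on 24 libraries. For diet in KO at CT15 there were 3 in limma against 698 in DESeq2 and 1213 in edgeR on 24 libraries, for time in WT on Control there were 212 in limma against 903 in DESeq2, and for time in WT on LeuD there were 1424 in limma against 701 in edgeR on 24 libraries. For time in KO on Control there were 6 in limma against 357 in DESeq2 and 553 in edgeR on 24 libraries, for time in KO on LeuD there were 120 in limma against 845 in DESeq2 and 1185 in edgeR on 24 libraries, and for genotype on Control at CT03 there were 2 in limma against 1 in edgeR, 91 in DESeq2 and 11 in edgeR on 24 libraries. For genotype on Control at CT15 there were 12 in limma against 48 in DESeq2 and 21 in edgeR on 24 libraries, for genotype on LeuD at CT03 there were 6 in limma against 469 in DESeq2 and 135 in edgeR on 24 libraries, and for genotype on LeuD at CT15 there were 273 in limma against 1040 in DESeq2 and 543 in edgeR on 24 libraries. For diet by genotype at CT03 there were 0 in limma against 1 in edgeR and 173 in DESeq2, for diet by genotype at CT15 there were 15 in limma against 1 in edgeR, 297 in DESeq2 and 75 in edgeR on 24 libraries, and for time by diet in WT there were 1 in limma against 70 in DESeq2 and 0 in edgeR on 24 libraries. For time by diet in KO there were 0 in limma against 44 in DESeq2 and 25 in edgeR on 24 libraries, for time by genotype on Control there were 4 in limma against 9 in DESeq2, and for time by genotype on LeuD there were 3 in limma against 91 in DESeq2 and 8 in edgeR on 24 libraries. For diet in WT both times there were 333 in limma against 698 in DESeq2, for genotype on Control both times there were 38 in limma against 106 in DESeq2, and for diet by genotype both times there were 215 in limma against 851 in DESeq2. Precision rests on 3 mice per group and, for Fgf21 in Control livers, on 33 to 225 reads.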

Other observations

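Fut1, a fucosyltransferase gene, is the gene nearest to Fgf21 on one side in GENCODE M21, on the opposite strand. It stood at 41.0, 30.7 and 25.6 normalized counts in WT LeuD CT03 livers and at 2.92, 8.25 and 7.99 in WT Control CT03 livers, and rose by 2.25 ± 0.45 on the log2 scale (adjusted p = 0.0459, limma). At CT15 in WT livers the difference was 2.97 ± 0.72 (adjusted p = 0.169), and at CT03 in KO livers 1.89 ± 0.47 (adjusted p = 0.233). Fut1 had 0 to 39 reads per library and is not listed for KO Control CT15. Bcat2, the nearest protein-coding gene on the other side and an enzyme of leucine breakdown, differed by 0.55 ± 0.14 in WT CT03 (adjusted p = 0.0848) and by 0.46 ± 0.19 in WT CT15 (adjusted p = 0.35), and by 0.052 ± 0.20 in KO CT03 and -0.14 ± 0.16 in KO CT15 (adjusted p = 0.921 and 0.711). Next to Gdf15, Lrrc25 and Pgpep1 were called in none of the 4 diet comparisons, with Lrrc25 between -0.32 and 0.48 and Pgpep1 between -0.20 and -0.022.

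On LeuD over both times, 7 of the 12 p53 target genes were called higher in KO than in WT livers and 0 lower, with a median log2 difference of 0.60 against 0.0052 over all genes, of which 8.59% were called in either direction. Eda2r averaged 96.4 ± 81.9 normalized counts in KO LeuD and 10.9 ± 3.67 in WT LeuD livers (SD, n = 6), a log2 difference of 2.71 ± 0.40 (adjusted p = 0.000573, limma), and Aen 866 ± 206 and 451 ± 86.7 (0.92 ± 0.15, adjusted p = 0.00116). Gdf15 differed in the same comparison by 1.12 ± 0.45 (adjusted p = 0.135) and Fgf21 by -0.22 ± 0.55 (adjusted p = 0.85).

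Summed markers of other cells are given as the lowest and highest library. In KO LeuD against KO Control libraries, Kupffer cell and macrophage markers took 376 to 910.5 against 468 to 665 RPM, sinusoidal endothelial cell markers took 268 to 418 against 351 to 479.8 RPM, stellate cell markers took 199 to 334 against 280.4 to 379 RPM, lymphocyte markers took 8.74 to 34.4 against 16.1 to 23.9 RPM, cholangiocyte markers took 33.0 to 78.1 against 28.8 to 47.1 RPM and adipocyte markers took 7.17 to 13.3 against 8.6 to 29.2 RPM. In WT LeuD against WT Control libraries, Kupffer cell and macrophage markers took 502 to 967 against 597 to 1397 RPM, sinusoidal endothelial cell markers took 407 to 498 against 394 to 490.3 RPM, stellate cell markers took 286 to 354 against 275 to 391 RPM, lymphocyte markers took 17.3 to 30.9 against 18.2 to 48.9 RPM, cholangiocyte markers took 30.0 to 54.8 against 32.9 to 46.5 RPM and adipocyte markers took 6.25 to 13.2 against 7.79 to 30.6 RPM. Their part in the results was not tested.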
